A study of Mus musculus with 12 samples.

Results

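Fibrillins, latent TGF-beta binding proteins (LTBPs) and elastic fiber proteins make up the microfibril and elastic fiber system of the extracellular matrix. Their 10 genes Fbn1, Fbn2, Ltbp1, Ltbp2, Ltbp3, Ltbp4, Eln, Emilin1, Fbln5 and Mfap5, of 22630 genes counted, were followed across 12 subcutaneous pancreatic tumors. Fibrillins assemble end to end into microfibrils, which give tissues their flexible framework and serve as the scaffold on which elastin is laid down. LTBPs resemble fibrillins in their repeated domains. Several of them bind latent TGF-beta and tether it to this framework, from which the growth factor is later released. Fibroblasts and smooth muscle cells are the main makers of these proteins in most organs, and a fibroblast-rich stroma is typical of pancreatic cancer. The 10 genes were chosen by name with earlier results of these tumors already known, the higher RPKM of Fbn1 in plus-dox tumors among them. The group differences given here are therefore descriptions of the 10 genes.

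All tumors grew from KCip53-1, a line that was sorted from 1 primary mouse pancreatic tumor and carries Ptf1a-Cre and a p53R270H transgene switched on by doxycycline (dox). 500000 cells were implanted per tumor under the skin of NSG mice, aged 8 to 10 weeks, hosts without mature T, B or NK cells. The 4 no-dox tumors never received dox. The 4 plus-dox tumors had 0.2 g/l dox in the 5% sucrose drinking water for 36 days. The 4 off-dox tumors had the same dose for 33 days and then 3 days without it. Mice bore a pair of tumors each. Because the labels do not tell which ones came from the same animal, every tumor was taken as independent, and the p-values understate the error where a mouse gave 2 tumors of a group. RNA came from whole tumors without sorting, so host cells contribute to every value. In such bulk tumors, fewer cells of a type and less RNA per cell cannot be told apart.

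Between 19845923 and 33137609 reads were counted on genes per tumor, and the share of mapped reads on genes was 88.4% to 89.4% without dox, 82.2% to 87.1% on dox and 81.1% to 85.8% off dox. This share separated every no-dox tumor from the dox-exposed tumors, so it and the dox history cannot be told apart. A pair of tumors stood apart in the whole profile. On the first principal component of 14350 genes (50.4% of the variance), plus-dox tumor 2 lay at 102 and off-dox tumor 4 at 66.7, with the other 10 tumors between -43.4 and 6.25. Values with and without this pair are given below for some genes and comparisons, and values given only once can also depend on it. Trp53, the gene of the transgene, had 47.7 ± 7.27 RPKM without dox, 48.5 ± 6.44 on dox and 44.0 ± 1.72 off dox (SD, n = 4 each). These groups overlapped, so the summed counts of Trp53 show no rise with dox. They cannot tell reads of the transgene from other Trp53 reads, so they do not decide whether it was induced. For subcutaneous tumors of KCip53 cells, the paper reports staining of dsRed, its readout of the transgene. It saw none in no-dox tumors, uneven staining in plus-dox tumors and fewer stained cells in off-dox tumors. The table holds 1 entry for all Trp53 reads, whatever allele they came from. The groups are therefore named by the dox given and not by the state of p53. The labelled tissue was checked with epithelial markers, whose keratin genes Krt8, Krt18 and Krt19 were found at 98.1 RPKM or more in every tumor. Other genes of that list fell far lower among plus-dox tumors, Epcam to 7.76 and Esrp1 to 0.578 RPKM. The mean log2 CPM of the list was 4.77 in plus-dox tumor 2 and 6.22 to 8.25 in the other tumors. The check therefore holds for the keratins and not for the whole list.

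Levels between genes are compared here only as RPKM, the reads of a gene scaled by its exonic length and by the mapped reads of the tumor. Mfap5, which encodes the microfibril-associated glycoprotein MAGP-2, had the highest mean of the 10 genes at 71.9 ± 26.7 RPKM (SD, n = 12 tumors). Ltbp3 followed with 55.9 ± 10.6 and Fbn1 with 30.6 ± 6.96. Ltbp2, Eln, Ltbp4, Ltbp1 and Emilin1 formed a middle range with means from 14.2 to 18.4 RPKM. Fbln5 with 2.59 ± 0.635 and Fbn2 with 2.13 ± 0.430 RPKM were lowest. Ltbp3 exceeded Fbn1, Fbn1 exceeded Ltbp2 and Emilin1 exceeded Fbln5 in 12 of 12 tumors. Mfap5 exceeded Ltbp3 in 9 tumors and Fbln5 exceeded Fbn2 in 10. Within the middle range the order held in only 6 to 9 of 12 tumors for each neighboring pair, so neighboring genes there had no steady order. Genes farther apart in this range were not compared, so this does not say that all 5 had the same level. All 10 genes passed the filter of 10 counts summed over the tumors, with the lowest single value being 257 counts for Fbln5. The spread between tumors was largest for Ltbp4, whose SD was 40.9% of its mean and whose highest tumor had 5.17 times the RPKM of its lowest. Mfap5 and Ltbp2 came next with 37.1% and 29.4%, and Ltbp1 varied least with 15.9%.

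**Figure D1:**
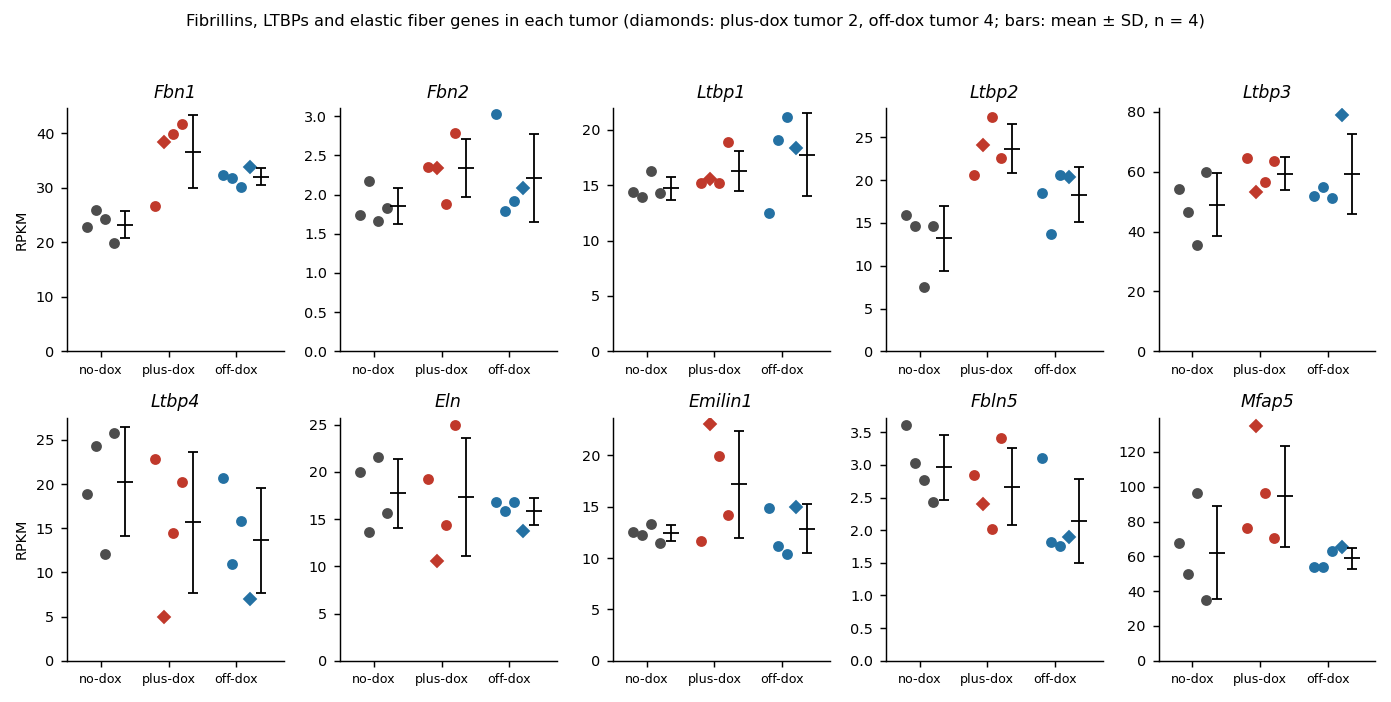
RPKM of each of the 10 genes in every tumor (points, 4 per group, y axes from 0), with the group mean ± SD as black bars and diamonds for plus-dox tumor 2 and off-dox tumor 4. The plus-dox points of Fbn1 and Ltbp2 all lie above their no-dox points, while the groups of most other genes overlap, and Ltbp4 is lowest in the pair of tumors drawn as diamonds.

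The comparison of plus-dox with no-dox tumors asks what differed while dox, the inducer of the transgene, was given. Fbn1, Ltbp2, Mfap5 and Emilin1 had the most positive differences of the 10 genes, at log2 fold changes of 0.49 to 0.87, whereas Eln, Fbln5 and Ltbp4 were lower. The median log2 fold change of the 10 genes was 0.31, beside 0.01 over all 17561 genes tested, and 7 of the 10 were higher. A gene was called where its p, adjusted over all genes, was under 0.1, its groups differed by more than 1.5-fold, its mean RPKM exceeded 0.25 and its exonic length 250 bp. By edgeR 0 of the 10 genes were called, as were 0 of all genes (0%). At an unadjusted edgeR p under 0.05 there were 3 of the 10, Fbn1, Ltbp2 and Emilin1, beside 13.7% of all genes. DESeq2 called 2, Fbn1 and Ltbp2, beside 0.847% of all genes. Every plus-dox tumor exceeded every no-dox tumor in RPKM for Fbn1 and Ltbp2, which was the case for 4.38% of all genes with a mean RPKM over 0.25, and the reverse held for 0 members and 3.97% of all genes. Since the genes were chosen with this comparison known, nothing is read from these counts.

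Off-dox tumors were set against no-dox tumors to see what differed 3 days after dox had been withdrawn. Ltbp2 and Fbn1 were again the most positive, at log2 fold changes of 0.51 and 0.50, and Ltbp4 and Fbln5 the most negative, at -0.55 and -0.43. The median of the 10 genes was 0.18 (0.01 over all genes), with 6 of 10 higher. edgeR called 0 of the 10 but 235 of all genes (1.34%). An unadjusted edgeR p under 0.05 was found for 3 of the 10, Fbn1, Ltbp2 and Fbln5, and for 20.4% of all genes. DESeq2 called 0 of the 10 and 4.16% of all genes. Only Fbn1 of the 10 had every off-dox tumor above every no-dox tumor, beside 5.13% of all genes, and none had every one below, beside 7.59%.

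Between off-dox and plus-dox tumors, Mfap5, Emilin1 and Ltbp2 were lower off dox, at log2 fold changes of -0.67, -0.41 and -0.36. Only Ltbp1 and Ltbp3 were higher, by 0.15 and 0.02, and the median of the 10 genes was -0.18 beside -0.00051 over all genes. edgeR called 0 of the 10 and 0% of all genes, with an unadjusted p under 0.05 for Mfap5 alone and for 3.06% of all genes. DESeq2 called 0 of the 10 and 0.0343% of all genes. Every off-dox tumor lay below every plus-dox tumor in RPKM for Ltbp2 and Mfap5, beside 0.909% of all genes, and above for none, beside 0.541%. On the log2 CPM scale with TMM factors neither gene separated these groups. The 3 comparisons share groups of tumors, so their values are side by side and not independent.

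When the 8 dox-exposed tumors (plus-dox and off-dox) were set against the 4 no-dox tumors, Ltbp2 and Fbn1 were the most positive with log2 fold changes of 0.69 (standard error 0.19) and 0.58 (0.13). The adjusted p of Fbn1 was 0.084 by edgeR, under the limit, but its change of 0.5846 on the log2 scale lay just below the 1.5-fold limit. That of Ltbp2 was 0.10, and 0.23 or more was found for each of the others. The median of the 10 genes was 0.29 beside 0.01 over all genes, with 7 of 10 higher. edgeR thus called 0 of the 10 genes (0.86% of all genes), with an unadjusted p under 0.05 for Fbn1, Ltbp2 and Fbn2 (21.6% of all genes). DESeq2 called Fbn1 and Ltbp2, beside 3.29% of all genes. Fbn1 alone had all 8 dox-exposed tumors above all no-dox tumors, beside 2.07% of all genes, and none had them below, beside 2.35%.

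**Figure D2:**
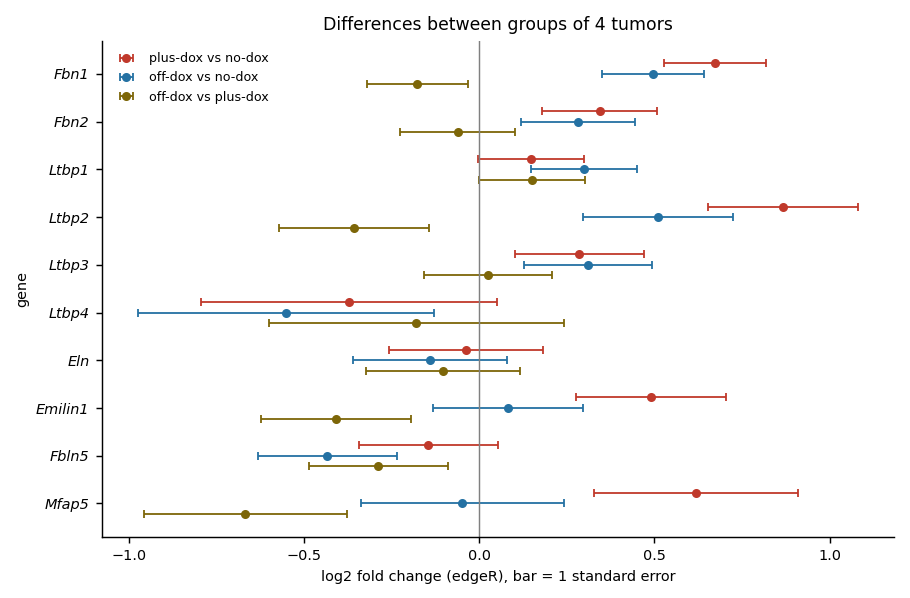
Log2 fold change of each gene from edgeR (x axis, points, bars 1 standard error, 12 tumors in the fit) for 3 comparisons of groups of 4 tumors. Fbn1 and Ltbp2 lie to the right of 0 in both comparisons with no-dox, Mfap5 and Emilin1 are to the right in plus-dox against no-dox and to the left in off-dox against plus-dox, and Ltbp4 has the widest bars.

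Fibrillins form the backbone of microfibrils. Fbn1, the gene mutated in Marfan syndrome, lies on chromosome 2 (mm9, 125126330 to 125332174, minus strand) with 9900 bp of exonic length. Its no-dox tumors 1 to 4 had 22.8, 25.9, 24.3 and 19.9 RPKM, its plus-dox tumors 26.7, 38.3, 39.8 and 41.6, and its off-dox tumors 32.3, 31.8, 30.2 and 33.9. The dox-exposed tumors were thus all above the no-dox tumors. Plus-dox tumor 1 was nearest to them, only 0.808 RPKM above the highest no-dox tumor, and the 4 off-dox tumors lay close together. Means were 23.2 ± 2.52, 36.6 ± 6.75 and 32.0 ± 1.51 RPKM (SD, n = 4 each), 1.58-fold higher on dox than without and 1.38-fold higher after withdrawal. The log2 fold change of plus-dox against no-dox was 0.67 (standard error 0.15, edgeR adjusted p = 0.32, DESeq2 adjusted p = 0.013, the alternatives spanning 0.013 to 0.55), and that of off-dox against no-dox 0.50 (0.15, edgeR 0.11, DESeq2 0.029). Without the 2 tumors that stood apart these were 0.64 and 0.45, and leaving out single tumors gave 0.60 to 0.81 and 0.44 to 0.54. Off-dox and plus-dox tumors overlapped, with a log2 fold change of -0.18 (0.15). A protein-coding gene model, Gm9913, lies antisense within the Fbn1 locus in the GENCODE annotation. The libraries carry no strand, so any of its reads that fall on Fbn1 exons would be counted for Fbn1. Whether the exons overlap was not tested, and no gene of the counting annotation overlapped Fbn1.

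Fbn2 encodes the fibrillin that prevails in embryonic tissue and is found on chromosome 18 (mm9, 58168277 to 58369580, minus strand). Its RPKM was 1.74, 2.18, 1.66 and 1.83 in no-dox tumors 1 to 4, 2.35, 2.34, 1.88 and 2.79 in plus-dox tumors and 3.03, 1.79, 1.92 and 2.09 in off-dox tumors. The groups overlapped, with off-dox tumor 1 highest of all. Log2 fold changes against no-dox were 0.34 on dox and 0.28 off dox (standard error 0.16 each). Fbn1 made up 91.4% to 95.5% of the summed RPKM of the 2 fibrillin genes in the 12 tumors, and this share was 92.6 ± 0.858% without dox, 93.8 ± 1.49% on dox and 93.6 ± 1.47% off dox.

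Of the LTBP genes, Ltbp1 encodes a protein that binds latent TGF-beta and anchors it in the matrix (chromosome 17, mm9, 75404869 to 75792307). It had 14.4, 13.9, 16.3 and 14.3 RPKM in no-dox tumors 1 to 4, 15.2, 15.6, 15.2 and 18.9 in plus-dox tumors and 12.5, 19.1, 21.2 and 18.3 in off-dox tumors. The lowest and the highest tumor were both off-dox, and the groups overlapped. Log2 fold changes against no-dox were 0.15 on dox and 0.30 off dox (standard error 0.15 each). A pseudogene, Gm6276, lies within the locus in the GENCODE annotation.

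Ltbp2 is the family member that does not bind latent TGF-beta and associates with fibrillin microfibrils (chromosome 12, mm9, 86124162 to 86216751, minus strand). Its RPKM was 15.9, 14.7, 7.47 and 14.7 in no-dox tumors 1 to 4, 20.6, 24.1, 27.4 and 22.6 in plus-dox tumors and 18.5, 13.7, 20.6 and 20.4 in off-dox tumors. All plus-dox tumors lay above all no-dox and all off-dox tumors, by a margin of 4.72 RPKM over the highest no-dox tumor but of 0.01 RPKM over the highest off-dox tumor. Off-dox tumor 2 fell within the no-dox range and no-dox tumor 3 stood far below the rest. The means were 13.2 ± 3.85, 23.7 ± 2.86 and 18.3 ± 3.22 RPKM (SD, n = 4 each), 1.80-fold higher on dox and 1.39-fold higher off dox than in no-dox tumors. The log2 fold change of plus-dox against no-dox, the largest of the 10 genes, was 0.87 (standard error 0.21, edgeR adjusted p = 0.32, DESeq2 adjusted p = 0.046, the alternatives spanning 0.046 to 0.55), and off-dox against no-dox gave 0.51 (0.21, edgeR 0.21, DESeq2 0.14). Without no-dox tumor 3 they were 0.68 and 0.33. The gene model D030025P21Rik overlaps the Ltbp2 locus antisense in GENCODE, and any of its reads on Ltbp2 exons would be counted for Ltbp2 in libraries without strand. Whether the exons overlap was not tested.

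Ltbp3, a binder of latent TGF-beta needed for normal bone and teeth, was the most abundant LTBP (chromosome 19, mm9, 5740904 to 5758426). No-dox tumors 1 to 4 had 54.1, 46.4, 35.5 and 59.9 RPKM, plus-dox tumors 64.4, 53.1, 56.4 and 63.5, and off-dox tumors 51.8, 54.8, 51.3 and 79.0. Off-dox tumor 4 was the highest of all, and the groups overlapped. Log2 fold changes against no-dox were 0.29 on dox and 0.31 off dox (standard error 0.18 each), and the second was 0.12 without the tumors that stood apart.

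Ltbp4 encodes an LTBP that binds latent TGF-beta weakly and takes part in elastic fiber assembly together with fibulin-5 (chromosome 7, mm9, 28090160 to 28122631, minus strand). Its RPKM was 18.8, 24.3, 12.1 and 25.8 in no-dox tumors 1 to 4, 22.9, 4.98, 14.5 and 20.3 in plus-dox tumors and 20.7, 11.0, 15.8 and 6.97 in off-dox tumors. The lowest values of all were those of plus-dox tumor 2 and off-dox tumor 4, the tumors that stood apart in the whole profile, and the groups overlapped. Group means were 20.3 ± 6.18, 15.7 ± 7.93 and 13.6 ± 5.95 RPKM, and 19.2 ± 4.29 on dox and 15.8 ± 4.86 off dox without that pair (n = 3 each). The log2 fold changes were -0.37 on dox and -0.55 off dox (standard error 0.42 each) and became -0.08 and -0.34 without the pair, so the plus-dox difference rested mostly on plus-dox tumor 2.

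The make-up of the LTBP family was similar between tumors for its main member and varied for the others. Ltbp3 held 52.0 ± 4.42% of the summed LTBP RPKM (SD, n = 12), with 46.7% to 63.4% in single tumors. The Ltbp2 share was 13.4 ± 2.23% without dox, 20.9 ± 4.08% on dox and 16.8 ± 2.18% off dox, with every plus-dox tumor (16.8% or more) above every no-dox tumor (15.4% or less). For Ltbp4 the share was 20.5 ± 3.52%, 13.2 ± 5.88% and 12.8 ± 6.05%. It came down to 5.09% in plus-dox tumor 2 and 5.59% in off-dox tumor 4, against 17.0% to 24.5% in no-dox tumors. Ltbp1 held 15.5 ± 3.37% over the 12 tumors. These shares rest on the same reads as the levels above.

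**Figure D3:**
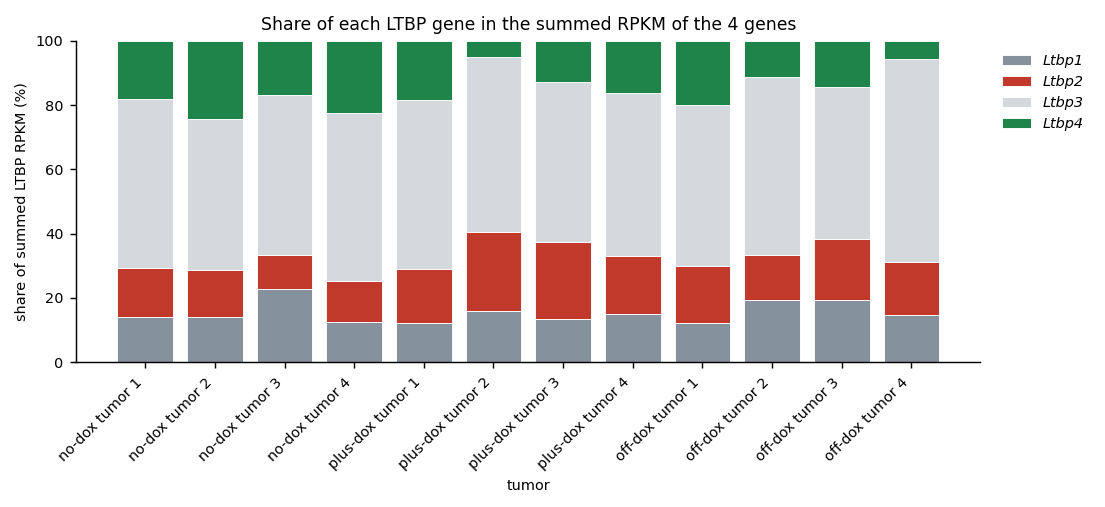
Share of each LTBP gene in the summed RPKM of Ltbp1, Ltbp2, Ltbp3 and Ltbp4 (y axis, percent) in each of the 12 tumors (1 bar each). Ltbp3 is close to the middle of every bar with 46.7% to 63.4%, and the Ltbp4 segment is thinnest in plus-dox tumor 2 (5.09%) and off-dox tumor 4 (5.59%).

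Eln, Fbln5 and Emilin1 belong to the elastic fiber proper, with elastin as its core protein, fibulin-5 as the linker that helps elastin onto microfibrils, and EMILIN1 as a glycoprotein at the border between both that also limits TGF-beta processing. Eln (chromosome 5, mm9, 135178466 to 135223124, minus strand) had 19.9, 13.7, 21.5 and 15.7 RPKM in no-dox tumors 1 to 4, 19.2, 10.6, 14.3 and 25.0 in plus-dox tumors and 16.9, 15.9, 16.8 and 13.7 in off-dox tumors. The lowest and highest values were both plus-dox, and the off-dox tumors lay inside the range of the others. Log2 fold changes were -0.04 on dox and -0.14 off dox against no-dox (standard error 0.22 each), and the first was 0.13 without the tumors that stood apart.

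Fbln5 (chromosome 12, mm9, 102984775 to 103057265, minus strand) had 3.62, 3.03, 2.76 and 2.44 RPKM in no-dox tumors 1 to 4, 2.84, 2.40, 2.03 and 3.41 in plus-dox tumors and 3.11, 1.82, 1.76 and 1.90 in off-dox tumors. In the off-dox group 3 tumors were below every other tumor, whereas off-dox tumor 1 sat among the no-dox tumors. The log2 fold change off dox was -0.43 (standard error 0.20, edgeR adjusted p = 0.24), and without off-dox tumor 1 it was -0.65 (0.17, adjusted p = 0.055, the alternatives spanning 0.055 to 0.44), past all limits for a call. The fit without that tumor, the 1 off-dox tumor that went against the difference, called 789 of all genes, beside 235 with all tumors. On dox the log2 fold change of Fbln5 was -0.15 (0.20).

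Emilin1 (chromosome 5, mm9, 31216159 to 31223646) had 12.6, 12.2, 13.4 and 11.5 RPKM in no-dox tumors 1 to 4, 11.7, 23.0, 19.9 and 14.2 in plus-dox tumors and 14.9, 11.2, 10.4 and 15.0 in off-dox tumors. Plus-dox tumors 2 and 3 were the highest of all, and plus-dox tumor 1 lay within the no-dox range. The log2 fold change on dox was 0.49 (standard error 0.21, edgeR adjusted p = 0.35) and 0.31 without the tumors that stood apart. Off dox it was 0.08 (0.21).

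Mfap5, the gene of MAGP-2, which binds fibrillin microfibrils (chromosome 6, mm9, 122463694 to 122479305), had 67.9, 49.8, 96.3 and 34.8 RPKM in no-dox tumors 1 to 4, 76.4, 135, 96.3 and 70.6 in plus-dox tumors and 53.7, 53.9, 62.8 and 65.3 in off-dox tumors. Plus-dox tumor 2 was highest, no-dox tumor 3 lay as high as plus-dox tumor 3, and all off-dox tumors were below all plus-dox tumors. Group means were 62.2 ± 26.5, 94.5 ± 29.0 and 59.0 ± 6.01 RPKM. The log2 fold change on dox was 0.62 (standard error 0.29, edgeR adjusted p = 0.37), 0.39 without the tumors that stood apart and 0.94 without no-dox tumor 3. Off dox against plus-dox it was -0.67 (0.29, edgeR adjusted p = 1.00), and -0.51 without the tumors that stood apart.

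The promoters of Fbn1 and Ltbp2, the genes with the largest differences on dox, and of Ltbp4, the gene that varied most, are shown so that their letters can be compared. The table of RefSeq promoters (build GRCm38.p6, not the mm9 build of the counts) held 7 of the 10 genes in 11 windows, all but Fbn2, Eln and Mfap5. Each sequence is the 250 bases before the annotated start, 5′ to 3′ on the strand of the gene. Fbn1 lies at chr2:125506439-125506688, Ltbp2 at chr12:84876492-84876741 and the first of 3 Ltbp4 windows at chr7:27337613-27337862, all on the minus strand. Capitals mark matches to the motifs listed after the sequences, on either strand.
Fbn1: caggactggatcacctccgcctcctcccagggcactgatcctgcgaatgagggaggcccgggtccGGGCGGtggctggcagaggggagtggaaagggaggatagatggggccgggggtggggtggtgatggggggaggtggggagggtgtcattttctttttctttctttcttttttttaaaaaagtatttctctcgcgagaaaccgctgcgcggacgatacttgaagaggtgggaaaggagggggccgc
Ltbp2: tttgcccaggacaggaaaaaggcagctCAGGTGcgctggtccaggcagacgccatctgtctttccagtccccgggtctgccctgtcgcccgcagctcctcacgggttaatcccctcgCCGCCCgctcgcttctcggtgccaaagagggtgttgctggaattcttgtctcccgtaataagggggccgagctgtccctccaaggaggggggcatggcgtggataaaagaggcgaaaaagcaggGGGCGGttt
Ltbp4: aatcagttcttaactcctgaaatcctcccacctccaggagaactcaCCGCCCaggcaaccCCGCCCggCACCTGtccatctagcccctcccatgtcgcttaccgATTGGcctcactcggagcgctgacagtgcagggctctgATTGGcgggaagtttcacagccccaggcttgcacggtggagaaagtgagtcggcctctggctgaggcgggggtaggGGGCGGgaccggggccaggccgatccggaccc

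Searched on both strands were TATAAA (the TATA box), GGGCGG (the GC box bound by Sp1), the CCAAT box, the AP-1 site TGANTCA, a SMAD-type element of letters CAGACA, an E-box of letters CAGGTG, the CArG box of serum response factor and the p53 half-site. GGGCGG occurred in Fbn1 at 185 to 180 bases before the start, in Ltbp2 at 133 to 128 and 9 to 4 and in Ltbp4 at 204 to 199, 190 to 185 and 32 to 27. CAGGTG occurred in Ltbp2 at 223 to 218 and in Ltbp4 at 182 to 177, and CCAAT in Ltbp4 at 146 to 142 and 108 to 104. Of the 11 windows of the 7 genes, 6 held GGGCGG (32.7% of all 32851 windows), 3 CCAAT (33.8%), 3 CAGACA (17.1%) and 3 CAGGTG (17.2%). Of the 6 windows with GGGCGG 3 belong to Ltbp4, whose windows 2 and 3 overlap over most of their length, so the count by gene is 4 of 7. CAGACA was found in windows of Ltbp1, Emilin1 and Fbln5. Letters of TATAAA (12.4% of all windows), TGANTCA (6.75%), the CArG box (1.47%) and the p53 half-site (7.13%) were in none of the 11. A match describes letters only, and the gene counts do not tell apart the several starts of Ltbp1, Ltbp4 and Fbln5.

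The tumors differed in the markers of several cell types, and the 10 genes were set beside 9 marker lists. Of 10 fibroblast markers, 8 were higher in plus-dox than in no-dox tumors with a median log2 fold change of 0.50, and their summed RPKM ran from 1231 to 2232 without dox, 1739 to 3261 on dox and 1412 to 1621 off dox. In off-dox against no-dox tumors 3 of the 10 fibroblast markers were higher with a median of -0.20, and of the 10 smooth muscle and pericyte markers 7 were higher with a median of 0.51, beside 0.50 for Fbn1 and 0.51 for Ltbp2. The 3 lower ones included Tagln (-0.19) and Acta2 (-0.23), the most abundant of that list. The summed RPKM of the list overlapped, at 297 to 536 without dox and 329 to 446 off dox. All 10 smooth muscle and pericyte markers and all 9 endothelial markers were higher on dox than in no-dox tumors, with medians of 0.57 and 0.52. Summed endothelial RPKM ran from 34.1 to 52.8 without dox, 44.7 to 139.9 on dox and 39.8 to 62.5 off dox, and 139.9 was the value of plus-dox tumor 2. Of 10 epithelial markers 9 were lower on dox, with a median of -0.68, and 1 had an unadjusted edgeR p under 0.05, beside 13.7% of all genes. Their sums of 1366 to 2059 RPKM on dox lay wholly below the 2326 to 3137 RPKM of no-dox tumors, and off dox they spanned 1079 to 2689. These sums weigh the abundant keratins most. The mean log2 CPM of the list overlapped, at 4.77 to 7.78 on dox and 7.30 to 8.25 without dox. The T and NK cell markers were higher for 6 of 6 genes on dox with a median of 1.51 and for 6 of 6 off dox with a median of 1.18. Their sums were low, 0.787 to 1.49 RPKM without dox, 2.51 to 3.67 on dox and 1.84 to 4.02 off dox, and Cd3e was at 0 in tumors of every group. Off dox edgeR called Nkg7 of this list higher and Krt14 of the keratinocyte list lower (log2 fold change -1.72, edgeR adjusted p = 0.090), beside 1.34% of all genes. Both calls were lost without any one of no-dox tumors 1, 2 and 4, plus-dox tumor 4 and off-dox tumors 2, 3 and 4, since 0 of all genes were then called. For dox-exposed against no-dox tumors edgeR called Nkg7 and Notch3 higher and Krt8 and Krt14 lower, beside 0.86% of all genes. The other lists were those of skeletal muscle (10 of 10 higher on dox, summed RPKM 12.0 to 212 without dox, 165 to 531 on dox and 13.2 to 1411 off dox), adipocytes (1 of 8 higher on dox), keratinocytes (1 of 4 tested higher on dox) and macrophages (4 of 7 higher on dox, median 0.03). What part these cells had in the differences of the 10 genes was not tested.

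Across the 12 tumors, log2 CPM of a gene and the mean log2 CPM of a marker list were compared for all 90 pairs by two-sided permutation tests with 100000 resamples. The Pearson r had an adjusted p under 0.05 for 7 pairs, all of Ltbp4, Emilin1 and Mfap5, whereas Spearman's rho had one for 0 of 90. Ltbp4 was high where epithelial markers were high, with r = 0.82 (adjusted permutation p = 0.038) and rho = 0.64 (adjusted permutation p = 0.21). This relation rested on the tumors that stood apart, which were also the farthest in the epithelial score, and r was 0.30 over the other 10. With the endothelial list Ltbp4 had r = -0.86 (adjusted permutation p = 0.018) and rho = -0.78 (adjusted permutation p = 0.099), with r = -0.54 without the tumors that stood apart and -0.79 without the 2 farthest in the score. For Ltbp4 and the T and NK cell list, r was -0.75 (adjusted permutation p = 0.050) and rho -0.69 (adjusted permutation p = 0.14), with r = -0.49 without the tumors that stood apart and -0.52 without the 2 farthest. Emilin1 followed the endothelial list with r = 0.88 (adjusted permutation p = 0.0090) and rho = 0.76 (adjusted permutation p = 0.099), and r was 0.78 without the tumors that stood apart and 0.70 without the 2 farthest. Thus the Emilin1 relation, unlike that of Ltbp4 with epithelial markers, kept a similar size without them. After each group's mean was removed from both values, r was 0.80, -0.95 and -0.88 for Ltbp4 with the epithelial, endothelial and T and NK cell lists. It was 0.83 for Emilin1 with the endothelial list. These values include the tumors that stood apart.

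Mfap5 followed the fibroblast list, with r = 0.90 (adjusted permutation p = 0.0090) and rho = 0.75 (adjusted permutation p = 0.099). Without the tumors that stood apart r was 0.87 and without the 2 farthest in the score 0.78. It also followed the endothelial list, with r = 0.85 (adjusted permutation p = 0.0090) and rho = 0.81 (adjusted permutation p = 0.099), 0.86 and 0.68 in the same order. For the smooth muscle and pericyte list r was 0.83 (adjusted permutation p = 0.019) and rho 0.69 (adjusted permutation p = 0.14), 0.77 and 0.75. After each group's mean was removed from both values these 3 r were 0.89, 0.78 and 0.90, so they held between tumors of the same group. Fbn1 had its highest r with the T and NK cell list, 0.75 (adjusted permutation p = 0.060; rho = 0.73, adjusted permutation p = 0.11), which became 0.18 with group means removed. With the endothelial list r was 0.70 (adjusted permutation p = 0.062; rho = 0.80, adjusted permutation p = 0.099), and 0.60 with group means removed. In the same order it was 0.69 (adjusted permutation p = 0.081) and 0.36 for smooth muscle and pericytes, and 0.46 (adjusted permutation p = 0.44) and 0.61 for fibroblasts. The values of 0.60 and 0.61 each had an adjusted permutation p of 0.23. Fbn2 had its r farthest from 0 with the keratinocyte list, -0.72 (adjusted permutation p = 0.078) with rho = -0.74 (adjusted permutation p = 0.10), and r was -0.55 without the 2 farthest tumors. For the remaining genes that r was 0.57 for Ltbp2 (T and NK cells), -0.55 for Ltbp3 (macrophages), -0.48 for Eln (endothelial), -0.40 for Fbln5 and 0.39 for Ltbp1 (both T and NK cells). Among the 45 pairs of the 10 genes none had an adjusted permutation p under 0.05. The most positive r was that of Emilin1 and Mfap5, 0.72 (adjusted permutation p = 0.16; rho = 0.56, adjusted permutation p = 0.31), and the most negative that of Ltbp1 and Fbln5, -0.71 (adjusted permutation p = 0.16; rho = -0.69, adjusted permutation p = 0.31). Without the 2 farthest tumors these were 0.56 and -0.47.

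**Figure D4:**
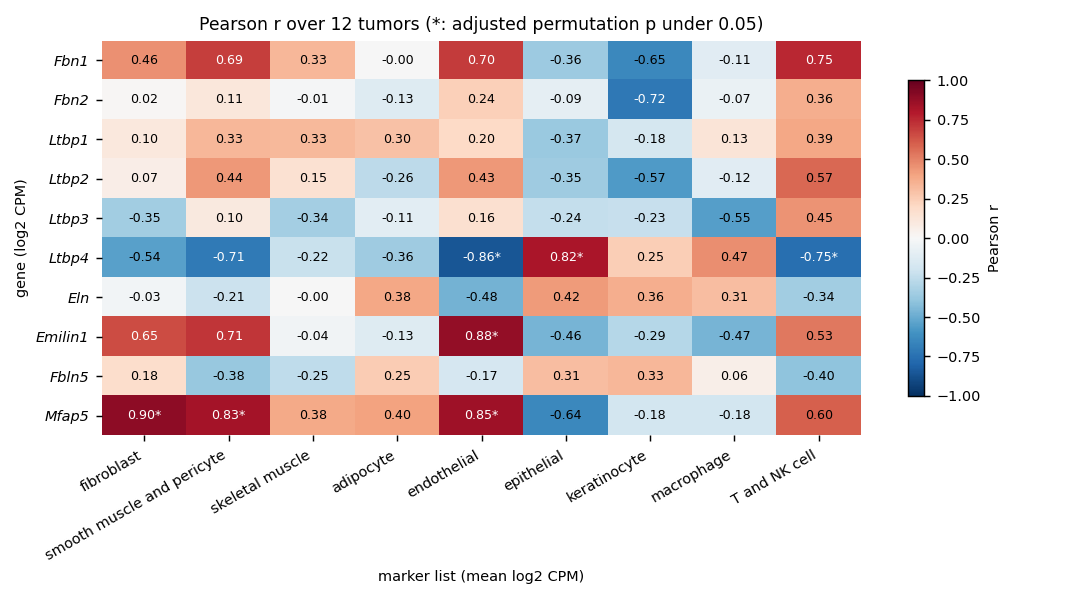
Pearson r over 12 tumors between log2 CPM of each gene (rows) and the mean log2 CPM of each marker list (columns), with colors from -1 to 1. The stars mark the 7 pairs with an adjusted permutation p under 0.05, which lie with Ltbp4, Emilin1 and Mfap5.

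**Figure D5:**
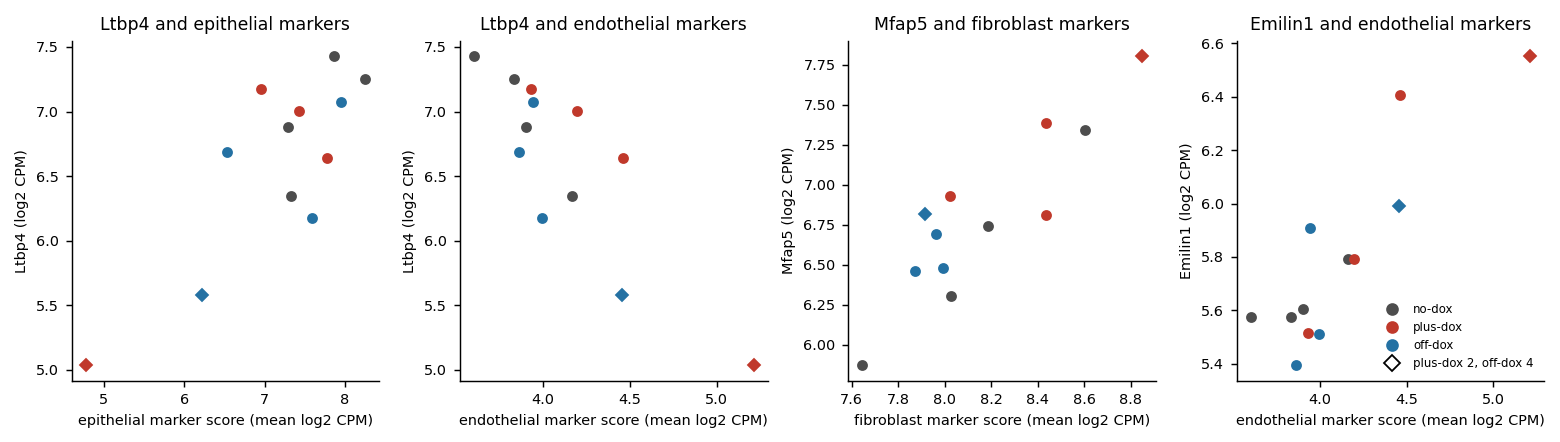
Log2 CPM of Ltbp4, Mfap5 and Emilin1 (y axes) against marker scores (x axes, mean log2 CPM of the list) in the 12 tumors, colored by group, with diamonds for plus-dox tumor 2 and off-dox tumor 4. The pair of diamonds lies at the low end for Ltbp4 with epithelial markers, where r is 0.82 with and 0.30 without them, while Mfap5 follows the fibroblast score over all tumors (r = 0.90 and 0.87).

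For each of the 10 genes, the 3 genes most like it across the 12 tumors were sought by Pearson r of log2 CPM among 12684 genes with a mean RPKM over 1. Ltbp4 had the closest matches, with Fgfr2, Aldh5a1 and Arhgef10l at r = 0.98 each, which were 0.93 to 0.95 without the tumors that stood apart. Mfap5 was closest to Fkbp11 (0.97), Rarres2 (0.96) and Egfl7 (0.95), and Emilin1 to C2 (0.97), Colec12 (0.96) and Kremen1 (0.94). The genes most like Fbn1 were Nav1 (0.95), Notch3 (0.92) and Fgd5 (0.91), of which Notch3 is also among the smooth muscle and pericyte markers. Those of Ltbp3 included Atn1 (0.95) and Dvl3 (0.95), those of Ltbp1 Zfpm2 (0.92), Rabggta (0.91) and Zrsr2 (0.90), and those of Ltbp2 Iqsec1 (0.89), Sart1 (0.88) and Obsl1 (0.87). Fbn2 was nearest to Ptprv (0.90), Trim62 (0.87) and Tril (0.82), Eln to Atrip (0.90), Mthfs (0.85) and Amy1 (0.83), and Fbln5 to Rarres1 (0.91), Pnpla2 (0.86) and Fam172a (0.86). These are the highest of 12684 values for each gene over tumors that share libraries and differ in cell content, and they are given as a description.

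Genes that act with the fibrillins and elastin were taken as 6 lists of 57 genes in all, and 57 passed the count filter. Lysyl oxidases cross-link elastin and collagen. All 5 were higher on dox than in no-dox tumors with a median log2 fold change of 0.58, and 0 were called by edgeR. Lox had 34.8 ± 6.69 RPKM without dox, 62.2 ± 28.4 on dox and 36.1 ± 6.53 off dox, and Loxl2 had 41.8 ± 3.68, 49.2 ± 8.03 and 45.2 ± 3.10 (SD, n = 4 each). The Lox log2 fold changes were 0.86 on dox (standard error 0.30, edgeR adjusted p = 0.33) and 0.08 off dox (0.30). Of 13 other microfibril-associated and fibulin genes, 12 were higher on dox with a median of 0.42, and off dox 6 were higher with a median of -0.07. Fbln2 was the most abundant of them at 240.2 ± 40.0, 291 ± 59.3 and 301 ± 69.2 RPKM in the same order, and Efemp2, which encodes fibulin-4, came second at 49.9 ± 4.65, 66.9 ± 25.8 and 46.6 ± 9.49.

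ADAMTS and ADAMTS-like proteins bind fibrillin and help to build or remodel microfibrils. Adamts6 was the only gene of the 6 lists that edgeR called, in off-dox against no-dox tumors, where it rose with a log2 fold change of 0.90 (standard error 0.23, adjusted p = 0.091, 1 of 8 genes of its list, beside 1.34% of all genes). Its RPKM was 2.44 ± 0.152 without dox, 3.54 ± 0.0958 on dox and 4.48 ± 2.11 off dox, with 1 off-dox tumor at 7.64. Every dox-exposed tumor was above every no-dox tumor, beside 2.07% of all genes. The call was lost without any one of no-dox tumors 1, 2 and 4, plus-dox tumor 4 and off-dox tumors 2, 3 and 4, since 0 of all genes were then called. Adamts10 of the same list, named after its values were seen, had 3.61 ± 1.02, 5.50 ± 1.15 and 6.10 ± 1.36 RPKM and a log2 fold change off dox of 0.80 (standard error 0.23, edgeR adjusted p = 0.11, DESeq2 adjusted p = 0.023). DESeq2 called both Adamts6 and Adamts10 off dox, beside 4.16% of all genes. The more abundant Adamtsl4 and Adamtsl5 had log2 fold changes of -0.09 and -0.05 off dox. Of 8 elastin-degrading proteases 4 were higher on dox, with a median of 0.12, and the most abundant, Ctss and Ctsl, the genes of cathepsins S and L, were at -0.06 and -0.02.

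TGF-beta ligands, receptors and activators, the partners of the LTBPs, were higher on dox for 13 of 15 genes with a median of 0.14, and off dox for 10 of 15 with a median of 0.11. The most abundant were the integrin genes Itgb1 and Itgb5, with log2 fold changes of 0.06 and 0.01 on dox. Of 8 TGF-beta response genes 6 were higher on dox and 6 off dox, with medians of 0.09 and 0.21. Ctgf had 336 ± 125 RPKM without dox, 275 ± 113 on dox and 212 ± 60.0 off dox. Its log2 fold change on dox was -0.28 (standard error 0.33), and 0 genes of either list were called by edgeR in any of the comparisons, with 1 of 15 genes of the ligand list and 0 of 8 of the response list at an unadjusted p under 0.05 on dox, beside 13.7% of all genes. The 1 gene was Lrrc32, whose product tethers latent TGF-beta to cell surfaces, named after its values were seen. It had 7.21 ± 0.489 RPKM without dox, 11.2 ± 2.87 on dox and 7.74 ± 1.06 off dox. Every plus-dox tumor was above every no-dox tumor, beside 4.38% of all genes. Its log2 fold change on dox was 0.66 (standard error 0.18, edgeR adjusted p = 0.32, DESeq2 adjusted p = 0.084), a call by DESeq2 only, which called 0.847% of all genes.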

How the data were processed

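RNA-seq of 12 whole tumors was analysed, 4 in each group. PolyA-selected libraries without strand were sequenced as short single-end reads. Per the submitters' processing notes and the methods of the study, reads were processed with CASAVA 1.8.2, aligned to mm9 with Bowtie 0.12.8 and TopHat 1.4.1, and quantified with bedtools 2.16.2 over exonic spans that belong to only 1 gene of a condensed RefSeq annotation. The authors deposited expected counts, derived from base-wise exonic coverage and not normalized, and RPKM values, scaled by exonic length and mapped reads. The handling of duplicate and multiply mapped reads was not given in the sources used here.

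The expected counts were rounded to whole numbers and tested by edgeR 4.0.16 (quasi-likelihood, TMM, R 4.3.3, all 12 tumors in 1 fit, 17561 genes whose counts over the tumors came to 10 or more) with Benjamini-Hochberg adjustment over all genes. The log2 CPM values use a prior count of 2. DESeq2 1.42.0, the tool of the study, RLE scaling, no count filter, fits of the compared groups alone, a replicate block and leaving out tumors were the alternatives. RPKM served for levels and log2 CPM for correlations (scipy 1.17.1, numpy 2.4.6, pandas 2.3.3). The edgeR step was tested on artificial counts. Nothing in the labels says that tumors came from separate mice, so the spread may include tumors of 1 animal. The depth of 19845923 to 33137609 counted reads put 257 or more counts behind each value of the 10 genes.

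The 10 genes, the related lists and the marker lists were chosen with earlier results of these data known. Named are the 10 genes, Trp53, the called genes and otherwise the 2 most abundant genes of each related list, and the 3 genes most like each of the 10, of which a few items are not reported here. Marker genes were named to check the tissue, and genes outside this rule are said to be so.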

Additional observations from a re-analysis of the deposited data

Results flagged for a closer look

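Within a group of 4 tumors, a value was singled out when its gap to the nearest other tumor was a larger part of the group's range than Dixon's critical value, which chance gives in about 1 of 20 groups. Of the 30 groups of the 10 genes, 4 held such a tumor. Ltbp1 had 18.9 RPKM in plus-dox tumor 4 and 15.2 to 15.6 in the others, and its log2 fold change of plus-dox against no-dox was 0.15 with and 0.08 without that tumor. Ltbp2 had 7.47 RPKM in no-dox tumor 3 and 14.7 to 15.9 in the others. Without it the log2 fold change was 0.68 in place of 0.87 on dox and 0.33 in place of 0.51 off dox. Ltbp3 had 79.0 RPKM in off-dox tumor 4, which also stood apart in the whole profile, and 51.3 to 54.8 in the others. Its difference off dox from no-dox was 0.31 with and 0.12 without that tumor, and from plus-dox 0.02 and -0.17. Fbln5 had 3.11 RPKM in off-dox tumor 1 and 1.76 to 1.90 in the others, and its log2 fold change off dox was -0.43 with and -0.65 without that tumor.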

How the results depend on the processing

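Of 710 log2 fold changes of the 10 genes under the alternatives, 688 kept their sign, and 32 of 40 did so under every one. The sign turned for Eln on dox (-0.25 to 0.13 without single tumors), Mfap5 off dox (-0.24 to 0.27), and others near 0. The count of the 10 genes called was 0 in each comparison by edgeR, and DESeq2 called 2, Fbn1 and Ltbp2, for plus-dox and for dox-exposed against no-dox. RLE scaling called 1, Fbn1, for dox-exposed against no-dox. Leaving out single tumors gave 0 to 1 for plus-dox against no-dox (Fbn1 without plus-dox tumor 1), 0 to 1 for off-dox against no-dox (Fbln5 without off-dox tumor 1), 0 to 0 for off-dox against plus-dox, and 0 to 2 for dox-exposed against no-dox (Fbn1 and Ltbp2 without plus-dox tumor 1 or off-dox tumor 1). On log2 CPM 0 of the 10 genes had off-dox wholly below plus-dox, against 2 in RPKM.

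Over all genes, DESeq2 called 128 for plus-dox against no-dox, 615 for off-dox against no-dox, 6 for off-dox against plus-dox and 509 for dox-exposed against no-dox, where edgeR called 0, 235, 0 and 151. For off-dox against no-dox, edgeR called 122 without the count filter, 3 from those groups alone and 471 without plus-dox tumor 2 and off-dox tumor 4. Without single tumors it called 0 to 3 for plus-dox against no-dox (3 without plus-dox tumor 1), 0 to 789 for off-dox against no-dox (789 without off-dox tumor 1, 19 without plus-dox tumor 3, 1 without no-dox tumor 3, 0 when no-dox tumor 1, 2 or 4 was left out, and likewise for plus-dox tumor 4 and for off-dox tumors 2, 3 and 4), 0 to 1 for off-dox against plus-dox (1 without off-dox tumor 1), and 0 to 498 for dox-exposed against no-dox (498 without off-dox tumor 1, 351 without plus-dox tumor 1, 66 without plus-dox tumor 2, 0 when any no-dox tumor was left out, and likewise for plus-dox tumors 3 and 4 and for off-dox tumors 2, 3 and 4). The cause was not tested.

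With a replicate block 0 of the 10 genes and 0 of all genes were called in every comparison. Tumors of the same number did not deviate together on average (mean r -0.09 over 12 pairs, 2 of them over 0.1, against 0.04 over 36 pairs of different number). Single pairs of the same number ran from -0.45 to 0.57, so the mean cannot tell whether some of them shared more than a number. Each of the 10 genes had at least 257 counts in every tumor.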
